A study of Homo sapiens with 6 samples.

Results

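Respiratory complex I, NADH:ubiquinone oxidoreductase, is the entry point of electrons from NADH into the mitochondrial respiratory chain. The genes described here are the nuclear genes that encode its subunits, taken as every row of the count files whose symbol is NDUF, then A, B, C, S or V, then digits only. The rule found 37 genes among 38557 listed, and it left out assembly factors, pseudogenes, NDUFAB1, NDUFA4L2 and the 7 subunit genes of the mitochondrial genome. All 37 passed the filter on low counts, in a table of 16107 tested genes. RNA was sequenced from cardiomyocytes that had been made from WTC11, a human iPSC (induced pluripotent stem cell) line, labelled wild type, and cultured in one of 2 backbone media. Cells in RPMI plus B27, where B27 is a supplement free of serum, gave 3 libraries (below, the B27 medium), and cells in DMEM plus fatty acids gave the other 3 (the fatty acid medium). By name the media differ in base, in B27 and in fatty acids, and effects of these cannot be told apart here. The labels number the biological replicates 1 to 3 in each medium and state no recipe of the media and no time in culture. All cells derive from 1 line, so p-values measure the spread between these cultures and not between donors.

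Complex I is L-shaped. Its hydrophilic arm holds an N module, where NADH is oxidised by a flavin and electrons enter a chain of iron-sulfur clusters, and a Q module, where they reach ubiquinone. Its membrane arm pumps protons and consists of a proximal and a distal part. A core shared with bacteria is made of nuclear subunits in the hydrophilic arm and mitochondrially encoded ND subunits in the membrane, and supernumerary subunits surround it. Heart muscle is rich in complex I because contraction is fuelled largely by oxidative phosphorylation.

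Libraries held 23232324 to 31035389 gene counts. The 12 cardiomyocyte markers were detected in all 6 libraries and together took 2.94% to 3.54% of gene counts in the B27 medium and 2.67% to 3.53% in the fatty acid medium, overlapping ranges, and edgeR called 0 of the 12 (1 higher and 2 lower at an unadjusted p below 0.05), while DESeq2 called MYH6 higher and MYH7 and ACTN2 lower. The 12 stromal markers took 0.704% to 1.45% and 0.119% to 0.313%, with 6 called lower and 11 fitted below 0. The 5 smooth muscle markers took 0.149% to 0.185% and 0.0338% to 0.116%, with 1 called lower, and the 6 epicardial markers 0.102% to 0.143% and 0.0588% to 0.0681%, with 1 called lower. That 1 was KRT8, a keratin found in many cell types, which held nearly all of the epicardial sum, while each of the other 5 was at most 7.72 CPM in any library. Of the 6 endothelial markers, which took 0.00353% to 0.0231% and 0.0115% to 0.0504%, the defining genes PECAM1, CDH5 and VWF were at or near 0, and the rest of the sum was mostly KDR. The 4 pluripotency markers took at most 0.00168%, and NANOG was at or near 0. With the replicate block, 2 cardiomyocyte, 9 stromal, 2 smooth muscle, 2 epicardial and 1 endothelial marker (EMCN) were called lower, and KDR, an endothelial receptor, was called higher. The 2 cardiomyocyte markers were MYH7 and ACTN2. Over all tested genes, edgeR called 0.292% higher and 1.07% lower, and with the block 1.36% higher and 3.42% lower. At an unadjusted p below 0.05, edgeR without the block gave 7.7% higher and 9.98% lower. Fitted above 0 were 51% of all tested genes. DESeq2, run without the low-count filter, called 1.37% of its 26969 genes higher and 3.2% lower. The part of these cell-type differences in the values below was not tested. In bulk RNA, fewer cells of a type and less RNA per cell cannot be told apart.

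Complex I subunit transcripts were fitted slightly higher in the fatty acid medium, mostly within the spread between replicates. The fitted log2 fold change, fatty acid medium over B27 medium, was above 0 for 34 of 37 genes, or 91.9%, against 51% of all tested genes. Its median over the 37 genes was 0.26, against 0.01 over all genes, and the range ran from -0.32 (NDUFS5) to 0.55 (NDUFA9). None of the 37 passed the threshold, an adjusted p below 0.05, in edgeR's quasi-likelihood test, where 1.36% of all genes passed (0.292% higher and 1.07% lower). DESeq2, run without the low-count filter, also called 0 of the 37, against 1.37% of its 26969 genes called higher and 3.2% lower. These 26969 include genes of low counts, so the shares do not compare directly with those of edgeR. At an unadjusted p below 0.05 edgeR gave 8 subunit genes higher, 21.6% of the list against 7.7% of all genes, and 1 lower against 9.98%. The smallest adjusted p was 0.128, for NDUFA9. Replicate numbers were taken to pair the libraries, a reading drawn from the data and not from the labels. A fit with the number as a block called 1 of 37 genes higher, NDUFB9. Over all genes this fit called 4.78% (1.36% higher and 3.42% lower). With the block, 16 of the 37 were higher and 1 was lower at an unadjusted p below 0.05, against 10.8% and 13.2% of all genes.

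In CPM (counts relative to library size) scaled by TMM, a normalisation that sets most genes near no change, libraries of the 2 media did not overlap for 11 genes. Of these, 10 were higher in the fatty acid medium, 27.03% of the list against 12.8% of all genes, and 1, NDUFS5, was lower, against 12.8%. Ranges overlapped for the other 26 genes. Scaling by total gene counts in place of TMM moved the median of all genes to 0.12. Under it 36 of 37 subunit genes were fitted above 0 (63.1% of all genes), their median was 0.36, and 21 were higher without overlap, against 20.6% of all genes, and 0 lower, against 8.31%.

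**Figure D1:**
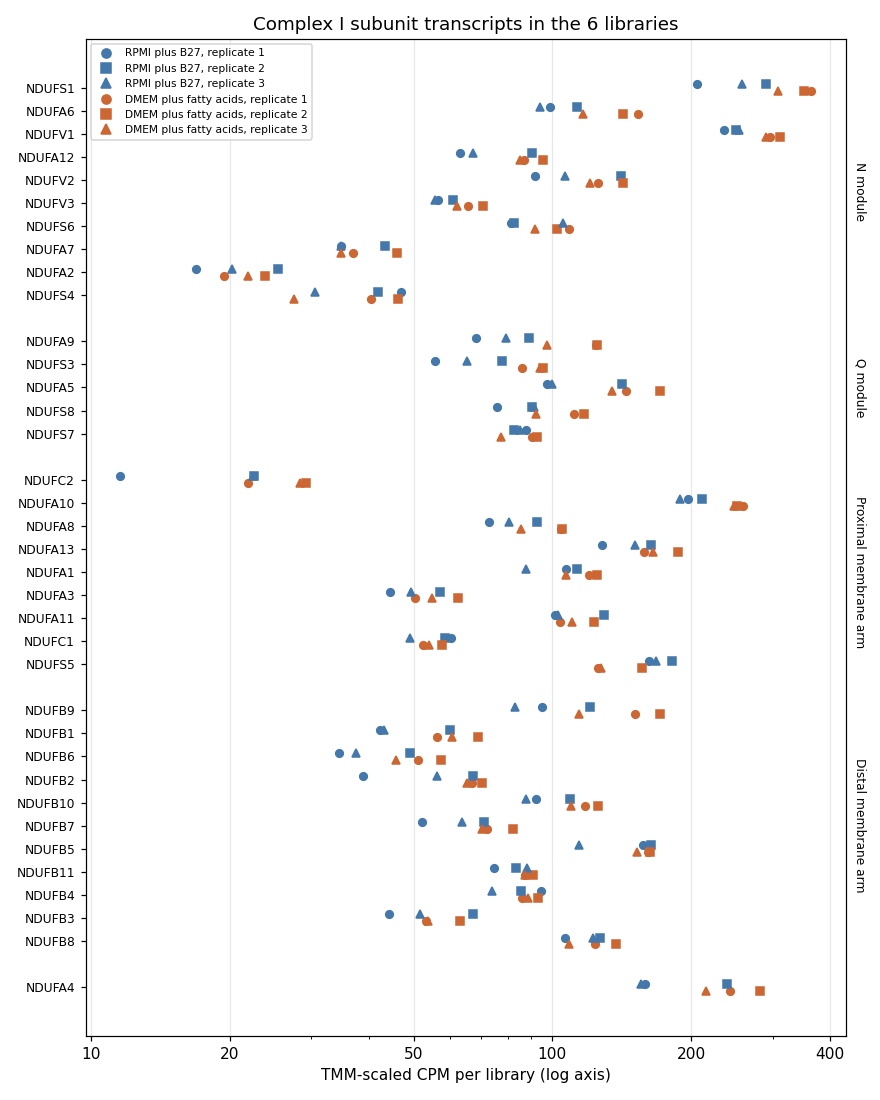
TMM-scaled CPM (log axis) of 36 of the 37 subunit genes in the 6 libraries, grouped by position in the enzyme. Orange points (fatty acid medium) sit mostly to the right of blue ones (B27 medium) but overlap them for 26 genes, and NDUFS5 is the 1 gene with all orange points to the left.

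Promoters are given for 4 genes because they hold matches to elements known from promoters of respiratory-chain genes and span the fitted changes, from NDUFA9 and NDUFS3 near the top, through NDUFA8 (log2 fold change 0.26), to NDUFS4 below 0. Sequences are from RefSeq (GRCh38.p14), run from 120 bases before the annotated start to 30 bases from it on, and are written 5′ to 3′ on the gene's strand. Capitals mark AAGATGGC, a YY1 motif, in NDUFA9 and NDUFS4, CCGGAAG, an ETS motif bound by GABPA, or its reverse complement in NDUFS3, and GCGCATGCG, an NRF1 motif, or its reverse complement, which overlap in NDUFA8.
NDUFA9, chr12:4648994-4649143, plus strand: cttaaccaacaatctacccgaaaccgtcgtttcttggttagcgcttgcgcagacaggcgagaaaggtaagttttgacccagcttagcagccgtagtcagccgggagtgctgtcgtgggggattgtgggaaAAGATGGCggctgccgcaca
NDUFS3, chr11:47578954-47579103, plus strand: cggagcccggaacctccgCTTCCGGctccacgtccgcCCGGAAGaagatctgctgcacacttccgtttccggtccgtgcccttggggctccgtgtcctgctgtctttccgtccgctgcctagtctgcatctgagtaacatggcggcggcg
NDUFA8, chr9:122159750-122159899, minus strand: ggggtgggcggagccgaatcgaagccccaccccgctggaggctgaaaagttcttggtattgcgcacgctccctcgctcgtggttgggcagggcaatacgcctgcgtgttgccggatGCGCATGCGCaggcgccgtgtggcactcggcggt
NDUFS4, chr5:53560519-53560668, plus strand: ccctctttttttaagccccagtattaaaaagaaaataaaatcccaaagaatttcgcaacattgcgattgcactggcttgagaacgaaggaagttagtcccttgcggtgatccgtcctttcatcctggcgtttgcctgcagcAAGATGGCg
The YY1 match began at position 10 in NDUFA9 and at 21 in NDUFS4, counted from the start base as 0, the ETS matches at -102 and -83 in NDUFS3 and the overlapping NRF1 matches at -4 and -3 in NDUFA8. RefSeq promoters of 300 bases matched 31 of the 37 genes, and both strands were searched. AAGATGGC was in 6 of these 31 (NDUFA3, NDUFA6, NDUFA7, NDUFA9, NDUFS4 and NDUFS7), or 19.4%, against 3.03% of 27305 promoters. Fitted changes of these 6 genes ran from -0.06 (NDUFS4) to 0.55 (NDUFA9). GCGCATGCG was in 4 (12.9% against 2.10%) and the shorter NRF1 core TGCGCA, which can overlap it, in 10 (32.3% against 8.42%). CCGGAAG was in 5 (16.1% against 10.7%), including NDUFS1 and NDUFS3. The GC box GGGCGG was in 20 (64.5% against 44.6%), CCAAT in 8 (25.8% against 35.7%), and TCAAGGTCA, an estrogen-related receptor motif, in 0 against 0.359%. A match describes the letters and is not evidence of binding.

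In the N module, 9 of 10 genes were fitted above 0 (90%, against 51% of all genes), with a median log2 fold change of 0.20. Libraries did not overlap for 4 (NDUFS1, NDUFV1, NDUFA6 and NDUFV3), all higher, or 40% against 12.8% of all genes. NDUFS1, the large iron-sulfur subunit, measured 205, 290.2 and 258 CPM in the B27 medium and 364, 351 and 308 CPM in the fatty acid medium. The log2 fold change of NDUFS1 was 0.44 ± 0.16 (SE, edgeR adjusted p = 0.211). B27 replicate 1 was the lowest library, and the lowest library in the fatty acid medium stood just above the highest in the B27 medium. NDUFV1, the flavoprotein that carries the NADH site, measured 235, 250.3 and 254 CPM in the B27 medium and 296, 312 and 290.3 CPM in the fatty acid medium. Its libraries were tightly grouped within each medium, and the log2 fold change was 0.28 ± 0.11 (SE, edgeR adjusted p = 0.241). NDUFV2, its iron-sulfur partner, measured 91.6, 140.5 and 107 CPM in the B27 medium and 126, 142 and 121 CPM in the fatty acid medium, overlapping ranges with a log2 fold change of 0.20 ± 0.17 (SE, edgeR adjusted p = 0.591). Without B27 replicate 1, the lowest library of NDUFV2, that value was 0.067, and without B27 replicate 2, the highest of its medium, 0.39. NDUFA6, a supernumerary subunit of the LYR-motif family, measured 98.8, 113 and 94.2 CPM in the B27 medium and 153, 142 and 116 CPM in the fatty acid medium. All libraries of NDUFA6 in the fatty acid medium were higher than those in the B27 medium, replicate 3 by the least, and the log2 fold change was 0.43 ± 0.14 (SE, edgeR adjusted p = 0.182). NDUFS4, a supernumerary subunit that stabilises the N module, was the exception: it measured 47.0, 41.8 and 30.5 CPM in the B27 medium and 40.4, 46.3 and 27.5 CPM in the fatty acid medium. Replicate 3 was lowest in both media for NDUFS4, the ranges overlapped, and the log2 fold change was -0.06 ± 0.24 (SE, edgeR adjusted p = 0.912). Among the other 5 genes (NDUFA2, NDUFA7, NDUFA12, NDUFS6 and NDUFV3) log2 fold changes ran from 0.06 to 0.28.

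The Q module had the highest median of the 4 structural groups, 0.37, with all 6 genes fitted above 0 and libraries of 4 not overlapping, among them NDUFA9, NDUFS3 and NDUFS8. These 4 were all higher, 66.7% of the module against 12.8% of all genes. The differences between structural groups were not tested. NDUFA9, a supernumerary subunit with a nucleotide-binding fold (chromosome 12, 4649114 to 4694317), measured 68.3, 89.002 and 79.4 CPM in the B27 medium and 124, 125 and 97.5 CPM in the fatty acid medium. It had the smallest p and the largest change of the 37 genes, a log2 fold change of 0.55 ± 0.15 (SE, edgeR adjusted p = 0.128). NDUFS3, a core subunit near the ubiquinone site (chromosome 11, 47579074 to 47584562), measured 55.6, 77.8 and 65.4 CPM in the B27 medium and 86.0, 95.5 and 94.2 CPM in the fatty acid medium, a log2 fold change of 0.47 ± 0.14 (SE, edgeR adjusted p = 0.160). For both genes every library in the fatty acid medium exceeded every library in the B27 medium. NDUFS8, an iron-sulfur subunit, measured 75.8, 90.2 and 91.3 CPM in the B27 medium and 111, 117 and 92.2 CPM in the fatty acid medium. The gap between media in NDUFS8 rested on less than 1 CPM, between replicates 3 of each medium, and the log2 fold change was 0.32 ± 0.14 (SE, edgeR adjusted p = 0.286). NDUFS7, which carries the last iron-sulfur cluster before ubiquinone, measured 87.7, 82.4 and 84.9 CPM in the B27 medium and 90.2, 92.8 and 77.4 CPM in the fatty acid medium. It was the flattest of the core subunits, with overlapping ranges and a log2 fold change of 0.03 ± 0.11 (SE, edgeR adjusted p = 0.914). NDUFA5, a supernumerary subunit of this module, had a log2 fold change of 0.41 ± 0.18 (SE, edgeR adjusted p = 0.289). Over the 7 nuclear core subunits of the N and Q modules, all were fitted above 0 (against 51% of all genes), with a median of 0.32. Of these, 5 were higher without overlap (71.4%, against 12.8% of all genes).

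In the proximal membrane arm, 7 of 9 genes were fitted above 0 (77.8%, against 51% of all genes), with a median of 0.20. Without overlap, 1 was above (NDUFA10) and 1 below (NDUFS5), against 12.8% of all genes in each direction. NDUFA10, a supernumerary subunit related to nucleoside kinases, measured 197, 211 and 189 CPM in the B27 medium and 259, 251 and 247 CPM in the fatty acid medium. Its spread was small in both media, and the log2 fold change was 0.34 ± 0.11 (SE, edgeR adjusted p = 0.166). NDUFS5, a subunit on the intermembrane-space face (chromosome 1, 39026350 to 39034615), measured 162, 181 and 168 CPM in the B27 medium and 126, 157 and 128 CPM in the fatty acid medium. All libraries of NDUFS5 in the fatty acid medium were below those in the B27 medium, with a log2 fold change of -0.32 ± 0.13 (SE, edgeR adjusted p = 0.260). When libraries were scaled by their total gene counts instead of TMM, the NDUFS5 ranges overlapped. NDUFC1 had a log2 fold change of -0.03 ± 0.12 (SE, edgeR adjusted p = 0.919), with overlapping ranges, and its sign turned with scaling by total gene counts (0.08), as did that of NDUFS4 (0.04). NDUFC2 measured 11.6 CPM in B27 replicate 1 and 21.9 to 29.2 CPM in the other 5 libraries, and its log2 fold change was 0.49 ± 0.27 (SE, edgeR adjusted p = 0.393), or 0.24 without that library. The readthrough gene NDUFC2-KCTD14, which overlaps it, had 0 counts in every library, and reads overlapping 2 genes were set aside, so NDUFC2 can be undercounted. The other 5 genes (NDUFA1, NDUFA3, NDUFA8, NDUFA11 and NDUFA13) had log2 fold changes of 0.02 to 0.26.

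In the distal membrane arm all 11 genes (NDUFB1 to NDUFB11) were fitted above 0 (against 51% of all genes), with a median of 0.27. Only the libraries of NDUFB10 did not overlap (9.09% of the arm, against 12.8% of all genes higher without overlap). NDUFB9, a LYR-motif subunit, measured 94.9, 121 and 82.8 CPM in the B27 medium and 151, 171 and 114 CPM in the fatty acid medium. The highest library in the B27 medium, replicate 2, exceeded the lowest in the fatty acid medium, replicate 3, but within each replicate number NDUFB9 was higher in the fatty acid medium, by 0.67, 0.50 and 0.46 on the log2 scale. Its log2 fold change was 0.55 ± 0.20 (SE, edgeR adjusted p = 0.210) without the block, and the adjusted p with the replicate block was 0.0408 (edgeR), the only call among the 37 genes in any fit. NDUFB10, a disulfide-bonded subunit, had a log2 fold change of 0.29 ± 0.12 (SE, edgeR adjusted p = 0.289). The other 9 genes ranged from 0.05 (NDUFB8) to 0.35 (NDUFB1).

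NDUFA4 carries a complex I name but is now counted as a subunit of complex IV, cytochrome c oxidase. It measured 158, 239 and 155 CPM in the B27 medium and 243, 282 and 215 CPM in the fatty acid medium, with B27 replicate 2 within the range of the other medium and a log2 fold change of 0.42 ± 0.20 (SE, edgeR adjusted p = 0.328). Without NDUFA4, the median over the remaining 36 genes was 0.23. NDUFA4L2, a related gene induced by hypoxia in other cells, had 8 to 18 counts in 5 libraries and 84 counts in B27 replicate 1. Its share of NDUFA4 plus NDUFA4L2 counts was 1.96%, 0.142% and 0.263% in the B27 medium and 0.318%, 0.0948% and 0.124% in the fatty acid medium (95% Wilson interval 1.58% to 2.42% in B27 replicate 1). The exact two-sided permutation test of the shares gave p = 0.5, where 3 against 3 libraries cannot go below 0.1. The fitted log2 fold change of NDUFA4L2, -1.62 ± 0.94 (SE, edgeR adjusted p = 0.413), became 0.16 without B27 replicate 1. NDUFAB1, the mitochondrial acyl carrier protein that is also built into complex I, had a log2 fold change of 0.12 ± 0.14 (SE, edgeR adjusted p = 0.684).

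**Figure D2:**
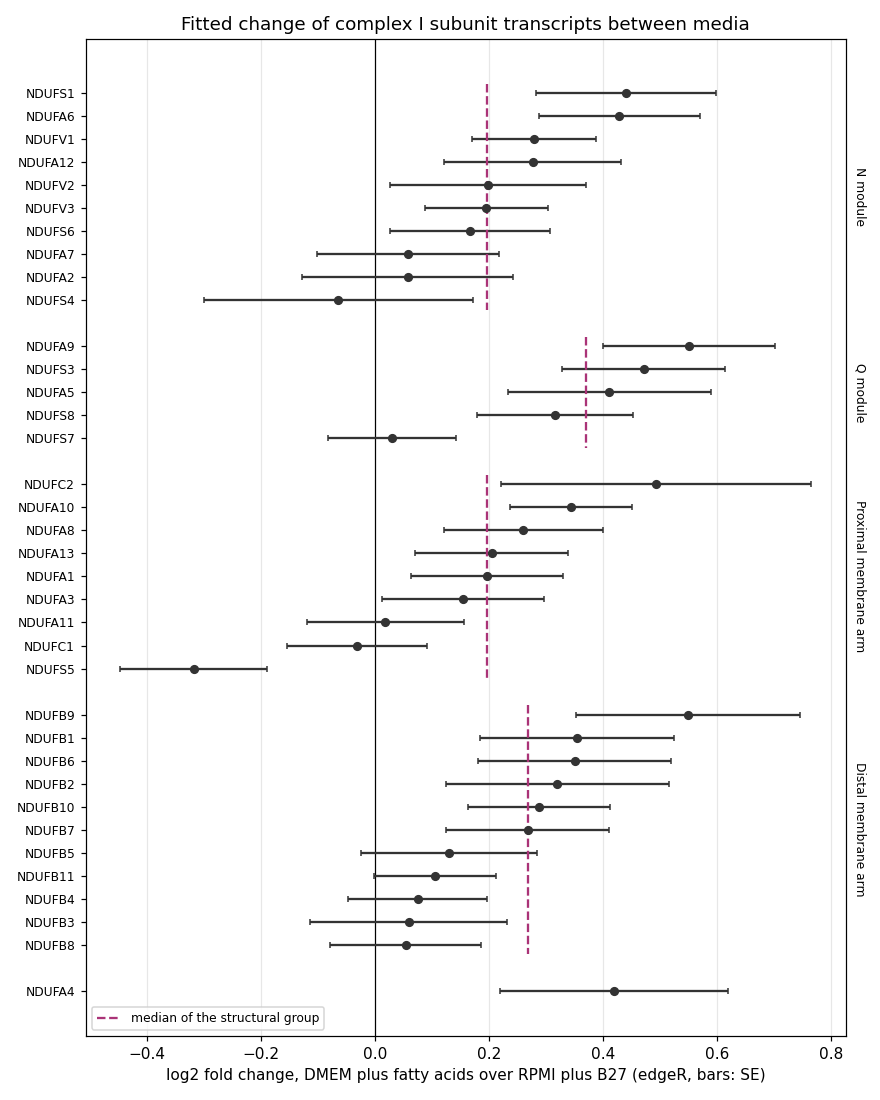
Fitted log2 fold change (edgeR, fatty acid over B27 medium) of 36 of the 37 genes with its SE, and the median over all genes of each structural group as a dashed line. The Q module median is 0.37, the highest of the 4, and NDUFS5, at -0.32, is the lowest gene.

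The 3 replicate pairs differed in size more than in direction. Within replicate 1, 33 of 37 genes were higher in the fatty acid medium, with a median difference of 0.40 on the log2(CPM + 0.5) scale. Within replicates 2 and 3 the numbers were 31 and 30 of 37, each with a median of 0.19. Over all tested genes 50.3%, 50.2% and 52.8% were higher within replicates 1, 2 and 3. Genes higher in all 3 pairs numbered 24, against 25.8% of all genes, and 1, NDUFS5, was lower in all 3, against 24%. B27 replicate 1 was the lowest of the 6 libraries for 23 genes, and fatty acid replicate 2 the highest for 25. Replicate 2 was the highest library of its medium for 29 genes in the B27 medium and for 33 in the fatty acid medium. In B27 replicate 1 the stromal marker share was also the highest, at 1.45%, and in fatty acid replicate 1 the lowest, at 0.119%; their part in the larger difference within replicate 1 was not tested. Without B27 replicate 1, the median log2 fold change of the 37 genes was 0.18 and 32 were fitted above 0.

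**Figure D3:**
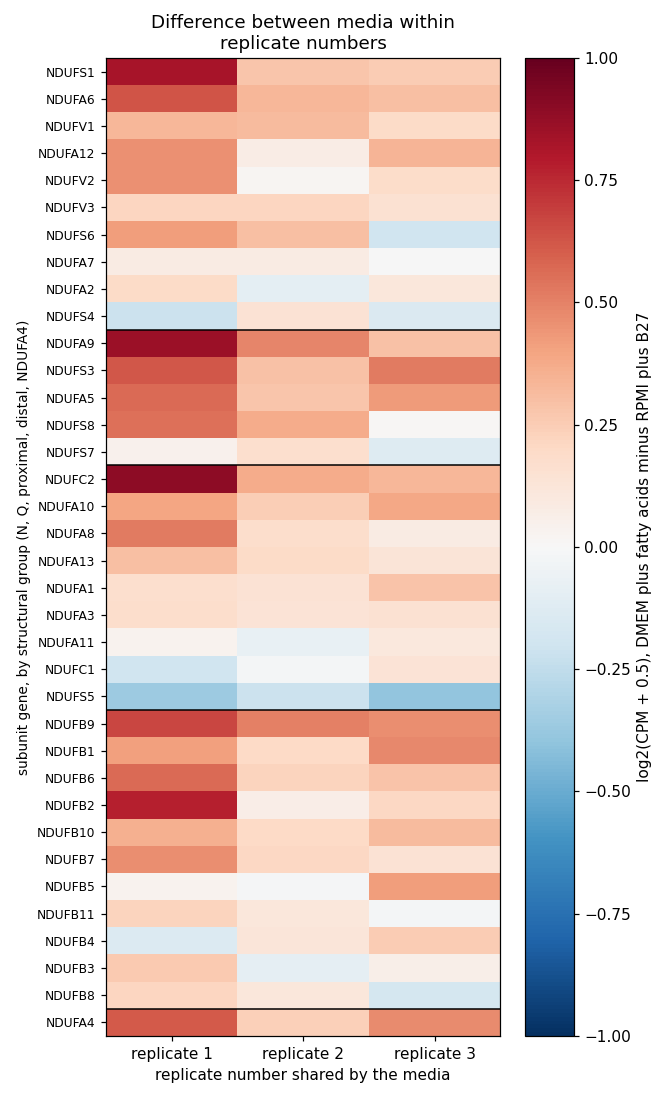
Difference in log2(CPM + 0.5) between media within each replicate number, 1 row for each of 36 genes, red where the fatty acid medium was higher. Replicate 1 holds the deepest reds (median 0.40), and NDUFS5 is the 1 row that is blue in all 3 columns.

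Summed over the 37 genes, subunit transcripts took 0.326%, 0.409% and 0.345% of gene counts in the B27 medium and 0.447%, 0.492% and 0.447% in the fatty acid medium. The ranges did not overlap, the ratio of means was 1.28 ± 0.17 (SD propagated from 3 libraries a medium), and the ratios within pairs were 1.37, 1.20 and 1.30. On TMM-scaled CPM the ratio was 1.19 and the ranges overlapped, from 3430 to 4188 and from 4116 to 4788 CPM. Within the subunit pool, shares of 3 genes were higher and 5 were lower without overlap. No matching rate over all genes was computed for shares. In TMM-scaled CPM 12.8% of all genes were higher and 12.8% lower without overlap, so this number is not read as a result about the subunits. The share of NDUFS5 in the subunit counts was 4.72%, 4.33% and 4.67% in the B27 medium and 2.81%, 3.27% and 3.10% in the fatty acid medium. Shares of NDUFA7, NDUFA11, NDUFB8 and NDUFC1 were likewise lower without overlap, and those of NDUFA9, NDUFS1 and NDUFS3 were higher, while the shares of the other 29 genes overlapped. The Q module took 18.2% to 19.2% of subunit counts in the B27 medium and 19.6% to 20.3% in the fatty acid medium. The proximal membrane arm took 24.6% to 25.8% and 22.3% to 23.8%. Shares sum to a fixed total, so one gene's gain lowers the others, and they do not depend on library scaling.

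**Figure D4:**
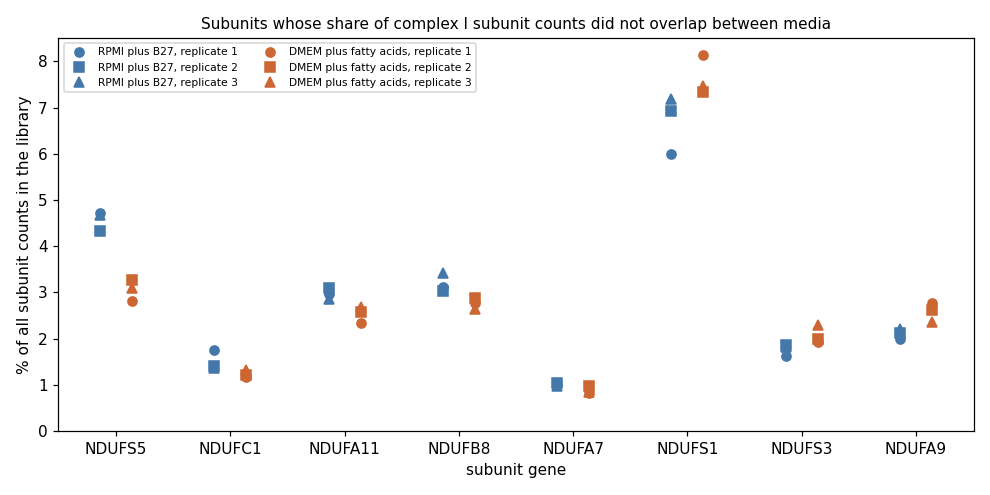
Share of each library's counts over the 37 subunit genes (percent) for the 8 genes whose shares did not overlap between media. NDUFS5 lies at 4.33% to 4.72% in the B27 medium and at 2.81% to 3.27% in the fatty acid medium, and NDUFS1 lies at 7.33% to 8.14% in the fatty acid medium, above every library of the B27 medium.

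Levels between genes were compared per kilobase of each gene's principal transcript in GENCODE v29, the longest where several were tied. NDUFS5 was the most abundant, at 311 ± 18 CPM per kilobase in the B27 medium and 249 ± 32 in the fatty acid medium (SD, n = 3), and NDUFC2 the least, at 7.49 ± 2.5 and 10.5 ± 1.6. In the B27 medium both kept these ranks when the union of all exons was used as length, whereas NDUFS3, for example, moved from rank 23 to rank 30 of 37 in the B27 medium. The rank of NDUFC2 is that of its counted reads, which can be too few because NDUFC2-KCTD14 overlaps it. Neither length corrects for such a loss.

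The 7 mitochondrially encoded ND genes, which form the membrane core of the enzyme, were mostly fitted slightly below 0. They took 2.79%, 3.07% and 3.17% of gene counts in the B27 medium and 3.09%, 2.50% and 2.63% in the fatty acid medium, overlapping ranges. In edgeR 0 of 7 were called, against 1.36% of all genes, and 2 were lower at an unadjusted p below 0.05, against 9.98%. Fitted above 0 was 1 of 7 (ND2), against 51% of all genes. With scaling by total gene counts this became 4 of 7, against 63.1%. The median log2 fold change of the 7 was -0.05, which became 0.054 with scaling by total gene counts and ran from -0.29 without fatty acid replicate 1 to -0.0097 without fatty acid replicate 3. ND4L and ND4, which are read from 1 bicistronic transcript, were lower in the fatty acid medium without overlap, as were 12.8% of all genes. ND4L measured 1187, 1186 and 1249 CPM in the B27 medium and 947, 696 and 731 CPM in the fatty acid medium, a log2 fold change of -0.61 ± 0.16 (SE, edgeR adjusted p = 0.121). ND4 measured 13991, 13946 and 14130.4 CPM in the B27 medium and 11551, 8709 and 9258 CPM in the fatty acid medium, a log2 fold change of -0.51 ± 0.21 (SE, edgeR adjusted p = 0.270). DESeq2 called both lower, with adjusted p = 0.0155 for ND4L and 0.0382 for ND4, where it called 3.2% of its 26969 genes lower. The other 5 genes (ND1, ND2, ND3, ND5 and ND6) overlapped, with log2 fold changes from -0.16 (ND5) to 0.22 (ND2). Within pairs, 5 of 7 ND genes were higher in the fatty acid medium in replicate 1, 1 in replicate 2 and 0 in replicate 3. The ratio of ND read counts to nuclear subunit read counts was 8.58, 7.49 and 9.20 in the B27 medium and 6.92, 5.09 and 5.89 in the fatty acid medium, without overlap. It is not corrected for transcript length, and its nuclear counts include NDUFA4. Reads with more than 1 alignment were set aside, so ND genes, which have partial copies in the nuclear genome, can be undercounted, and ND6 lies on the strand opposite to the other ND genes, with the strand setting of the counting not given in the sources used here.

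**Figure D5:**
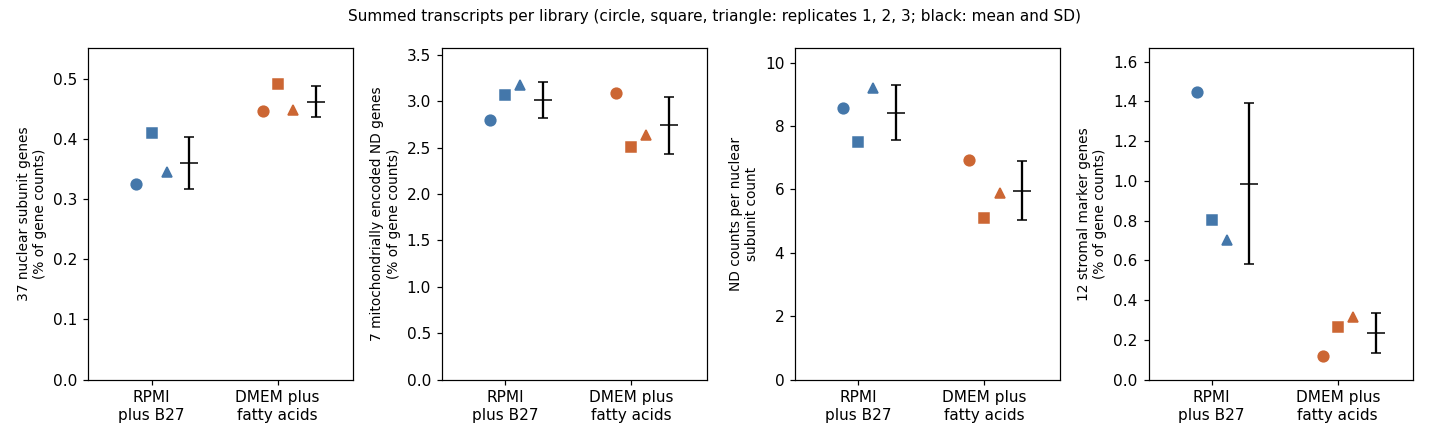
Per library, from left to right: the 37 nuclear subunit genes and the 7 ND genes as percent of gene counts, ND counts per nuclear subunit count, and the 12 stromal markers as percent of gene counts, with mean and SD in black. The summed nuclear genes and the ratio do not overlap between media, the ND genes do, and stromal markers are lower in every library of the fatty acid medium.

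Most other genes of the pathway were also fitted above 0 without passing the edgeR test. Of 18 assembly factors, which build complex I without staying in it, edgeR and DESeq2 called 0, edgeR gave 1 higher at an unadjusted p below 0.05 (5.56%, against 7.7% of all genes), 14 were fitted above 0 (77.8%, against 51%) and 5 did not overlap, all higher (27.8%, against 12.8%). Their median log2 fold change was 0.18, and 0.10 without B27 replicate 1. NDUFAF4, an early assembly factor, measured 22.1, 22.5 and 22.3 CPM in the B27 medium and 39.1, 30.5 and 23.9 CPM in the fatty acid medium, a log2 fold change of 0.48 ± 0.19 (SE, edgeR adjusted p = 0.247), or 0.29 without fatty acid replicate 1. ACAD9, an acyl-CoA dehydrogenase relative that acts in assembly, measured 26.5, 27.4 and 32.1 CPM in the B27 medium and 33.0, 36.4 and 36.6 CPM in the fatty acid medium, a log2 fold change of 0.30 ± 0.13 (SE, edgeR adjusted p = 0.292). Of 40 nuclear subunit genes of complexes II to V, 39 were tested. Of these edgeR called 0, 13 were higher at an unadjusted p below 0.05 (33.3%, against 7.7% of all genes), 37 were fitted above 0 (94.9%, against 51%, with a median of 0.29) and 18 did not overlap, all higher (46.2%, against 12.8%). COX6A1, a complex IV subunit, measured 76.0, 94.5 and 86.7 CPM in the B27 medium and 124, 132 and 113 CPM in the fatty acid medium, and was called higher by DESeq2 (adjusted p = 0.0383) but not by edgeR, with a log2 fold change of 0.52 ± 0.13 (SE, edgeR adjusted p = 0.0972). UQCRFS1, the Rieske iron-sulfur protein of complex III, measured 134, 161 and 153 CPM in the B27 medium and 205, 212 and 181 CPM in the fatty acid medium, a log2 fold change of 0.42 ± 0.13 (SE, edgeR adjusted p = 0.159). No difference between complex I and the other complexes was tested. Among 7 regulators of respiratory genes, 0 were called by edgeR or DESeq2. At an unadjusted p below 0.05 edgeR gave 2 higher (28.6%, against 7.7% of all genes), and 5 were fitted above 0 (71.4%, against 51%). TFAM, the mitochondrial transcription and packaging factor, measured 35.4, 46.3 and 52.6 CPM in the B27 medium and 62.3, 56.6 and 63.5 CPM in the fatty acid medium, and GABPA, whose motif is named above, measured 31.3, 37.9 and 37.7 CPM in the B27 medium and 42.3, 45.2 and 47.1 CPM in the fatty acid medium. Both, picked as the 2 smallest p of the 7, were higher in the fatty acid medium without overlap (28.6% of the list, against 12.8% of all genes). Their log2 fold changes were 0.44 ± 0.16 (SE, edgeR adjusted p = 0.218) and 0.33 ± 0.13 (SE, edgeR adjusted p = 0.238). NRF1, whose motif is also named above, had a log2 fold change of -0.04 ± 0.16 (SE, edgeR adjusted p = 0.908). For YY1, likewise named above, it was -0.09 ± 0.12 (SE, edgeR adjusted p = 0.741). Ranges of NRF1 and YY1 overlapped between media. No relation between motifs and these factors was tested.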

How the data were processed

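Raw counts per gene symbol were deposited, 1 file per library, with no normalization. STAR, HTSeq and the build hg38 are named in the submitters' processing notes; versions, annotation and strand setting are not given in the sources used here. The kit was stranded and selects mRNA, per the labels. Antisense rows such as NDUFB2-AS1 and NDUFV2-AS1 held 21 to 68 counts per library. Rows of reads assigned to no gene (5.44% to 7.57% of each file), to several genes (3.90% to 4.15%) or to several places (3.05% to 4.10%) were left out.

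Counts were tested over all genes with edgeR 4.0.16 (R 4.3.3): filterByExpr (minimum count 10, minimum total 15), TMM scaling, quasi-likelihood test, Benjamini-Hochberg adjustment and a threshold of 0.05. SEs are those implied by the F statistic. The scripts were run on simulated data with larger changes than those of the subunits and no replicate pairing. That run does not show how the fits perform at changes of the size seen here. Every pair of libraries differed by more than sampling noise. Both media carry replicate numbers 1 to 3. Deviations from the medium means correlated at 0.31, 0.43 and 0.37 for the same number and at -0.24 to -0.14 for other numbers. Deviations within a medium sum to 0, so the negative values follow in part from the positive ones. The numbers were taken to pair libraries, a reading that rests on the data and not on the labels. The block leaves 2 residual degrees of freedom in place of 4.

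Alternatives were RLE or total-count scaling, 2 other filters, DESeq2 1.42.0, the replicate block, leaving out each library and leaving out NDUFA4. A count of 0 allows up to 3 counts, which is 0.0889 to 0.129 CPM per library. Intervals are 95% Wilson intervals, and both limits reflect counting error alone. Per-length levels used GENCODE v29, and gene positions and promoter motifs used RefSeq. Members and lists were chosen with earlier results of these data known. Values in every library are given for genes called with or without the block, the 6 smallest p, the 2 largest and 2 lowest changes, NDUFS1, NDUFV1, the 7 core subunits, NDUFA4, and, outside the members, the 2 smallest p of each further list. NDUFA5, NDUFB10, NDUFC1 and NDUFC2 are outside that rule and were chosen after seeing their values. The values of 1 gene that the rule selects are not reported here.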

Additional observations from a re-analysis of the deposited data

How the results depend on the processing

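Of 444 values of single subunit genes under alternatives, 423 kept their direction and side of the threshold, 1 passed it (NDUFB9 with the replicate block) and 20, from 10 genes, changed sign. The replicate block gave 1 subunit gene called higher in place of 0 and changed no other call among the subunits, ND genes and pathway genes; among cell-type markers it added further calls, including MYH7, ACTN2 and EMCN (lower) and KDR (higher). Over all genes edgeR called 219 genes, against 770 with the block, 1232 with DESeq2, 539 with no low-count filter, 119 with at least 10 counts in every library, and 3 to 131 with 1 library left out. With libraries scaled by total gene counts the median log2 fold change was 0.36 for the subunits and 0.29 for the assembly factors, 4 of 7 ND genes were fitted above 0, and NDUFC1 (0.078), NDUFS4 (0.037), ND1 (0.073), ND3 (0.054) and ND6 (0.070) changed sign. DESeq2 called 2 ND genes lower (against 3.2% of its 26969 genes) and 1 gene of complexes II to V higher (against 1.37%). The cause of these differences was not tested. Leaving out 1 library at a time, the subunit median ranged from 0.18 to 0.35, the subunits above 0 from 28 to 35 and the ND genes above 0 from 1 to 3. Genes whose sign turned ranged from -0.049 to 0.14 (NDUFA11), -0.073 to 0.22 (NDUFA2), -0.071 to 0.17 (NDUFA7), -0.070 to 0.24 (NDUFB3), -0.010 to 0.16 (NDUFB4), -0.014 to 0.22 (NDUFB5), -0.031 to 0.14 (NDUFB8), -0.12 to 0.024 (NDUFC1), -0.23 to 0.13 (NDUFS4), -0.019 to 0.11 (NDUFS7), -2.28 to 0.16 (NDUFA4L2), -0.096 to 0.076 (ND1), -0.22 to 0.061 (ND3) and -0.29 to 0.14 (ND6). Among genes that kept their sign, values moved by a factor of over 1.5 from the fit with all libraries for NDUFV2 (0.067 to 0.39), NDUFC2 (0.24 to 0.64), NDUFA4 (0.31 to 0.65), NDUFA1 (0.098 to 0.27), NDUFA3 (0.067 to 0.25), NDUFA12 (0.18 to 0.45), NDUFA13 (0.11 to 0.28), NDUFS6 (0.098 to 0.30), NDUFB1 (0.26 to 0.54), NDUFB2 (0.13 to 0.50), NDUFB7 (0.15 to 0.37), NDUFB11 (0.041 to 0.16), NDUFAB1 (0.060 to 0.26), NDUFAF4 (0.29 to 0.65), ND2 (0.060 to 0.38) and ND5 (-0.39 to -0.0097). Genes below that factor also moved, such as NDUFS1 (0.31 to 0.56) and NDUFB6 (0.25 to 0.52). Fits without 1 library assume that the remaining pair of its medium varies like the other group. At 3 libraries a medium, the SEs of single subunits (0.11 to 0.27) were as large as or larger than many of the fitted changes, and a p that misses the threshold does not show that a gene did not differ.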

Other observations

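Across the 37 subunit genes, fitted log2 fold changes correlated positively with transcript length. Pearson's r was 0.41 and Spearman's rho 0.46 for the principal transcript, and 0.41 and 0.37 for the union of exons. With mean CPM the values were 0.23 and 0.25. The same relations over all genes were not computed, so a trend common to the libraries cannot be told apart from one of the subunits. The genes share libraries and are not independent, so these values are a description. Differences between media within replicate 1 and within replicate 2 correlated across the 37 genes at r = 0.69 (rho = 0.70), replicates 1 and 3 at 0.55 (0.52) and replicates 2 and 3 at 0.43 (0.42).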
